A study of Mus musculus with 44 samples.

Results

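Integrins, cadherins, claudins, EpCAM and adhesion molecules of the immunoglobulin superfamily were examined across 11 groups of mouse embryonic stem (ES) cell arrays. The members are the probe sets whose only platform gene symbol is that of an integrin alpha or beta chain, a numbered cadherin, a claudin, an Icam, Ceacam or Ncam gene, Vcam1, L1cam or Epcam. These are 80 of 12422 probe sets tested and 54 of 8251 gene symbols: 21 probe sets of 12 integrin alpha genes, 9 of 6 integrin beta genes, 17 of 13 cadherin genes, 12 of 9 claudin genes, 20 of 13 immunoglobulin superfamily genes and 1 of Epcam. A probe set is a group of short probes on the array that are summarised to 1 value, and 20 of the 54 genes have several.

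The study profiled ES cells of the CGR8 line (clone cgr8.8) in which Hex, a homeodomain transcription factor, or the fusion HexERTVP2 had been targeted to the Rosa26 locus. Total RNA was hybridised to 44 Affymetrix MG-U74Av2 arrays, of which 40 were assigned to groups and 4 were left out because the words and the code of their titles disagree. The groups were wild-type CGR8.8 cells without an insert (4 arrays), Hex cells before recombination (4) and after it (4), and HexERTVP2 cells of clone 1 and clone 2, each before and after recombination and each with or without 4-hydroxytamoxifen (4-OHT), a ligand of the modified oestrogen receptor domain that the name of the fusion denotes. For clone 1 the unrecombined cells had 5 arrays without and 3 with 4-OHT, and the recombined cells 4 and 4. For clone 2 each of the 4 states had 3 arrays. The labels do not say what recombination does to the insert, give no dose or time of 4-OHT, and name no clone for the Hex line. Replicates are not said to be separate cultures, so p-values measure only the spread between arrays.

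Integrins are dimers of 1 alpha and 1 beta chain that bind extracellular matrix and connect it to the actin cytoskeleton. Cadherins bind the same cadherin on a neighbouring cell and hold the catenins at their cytoplasmic side, claudins form the seal of tight junctions, and Icam, Vcam, Ncam and Ceacam proteins are immunoglobulin domain proteins that bind integrins or each other. In ES cells E-cadherin (Cdh1) holds the colonies together, EpCAM is a surface protein of undifferentiated cells, and integrins with the beta 1 chain bind laminin and fibronectin of the substrate.

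All levels are log2 intensities, and all differences are differences of log2 means with the standard error (SE) of a limma fit over the 11 groups. A probe set was called where the Benjamini-Hochberg adjusted p over all 12422 probe sets was under 0.05. Array 2 of unrecombined Hex stood apart from the other 39: its mean correlation with them was 0.869 against 0.978 to 0.990, and the SD of its log2 values was 1.60 against 1.79 to 1.98. It was the highest of the 40 arrays in 33 members (41.2%) and the lowest in 9 (11.2%), against 32.9% and 33.3% of all probe sets. All 40 arrays share 1 estimate of the spread per probe set, so this array bears on each comparison, and results are given with and without it. The β-actin 3′/5′ log2 ratio, a sign of RNA or labelling quality, ran from 0.56 to 2.34 over the 40 arrays and was 2.24 on array 2. Of 12 ES cell markers, 10 were above the array's median on all 40 arrays, against 2 of 11 measured endoderm markers, 4 of 10 fibroblast, 2 of 12 blood and endothelium, 2 of 8 trophoblast and 3 of 9 neuroectoderm markers. In RNA of whole cultures, fewer cells of a type and less RNA per cell cannot be told apart.

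To show what lies upstream of a pair of the genes described below, the 250 bases before the RefSeq start are printed for Icam1, whose difference between recombined and unrecombined Hex was the only one called on all arrays, and for Itgb1, whose probe sets were both called between the clones. Both are on the plus strand of GRCm38.p6, at chr9:21015690-21015939 and chr8:128685404-128685653. Capitals mark GGAAATTCC, an NF-κB type motif, and the GC box GGGCGG or its reverse complement CCGCCC; both strands were searched, and these motifs do not overlap each other here.
Icam1: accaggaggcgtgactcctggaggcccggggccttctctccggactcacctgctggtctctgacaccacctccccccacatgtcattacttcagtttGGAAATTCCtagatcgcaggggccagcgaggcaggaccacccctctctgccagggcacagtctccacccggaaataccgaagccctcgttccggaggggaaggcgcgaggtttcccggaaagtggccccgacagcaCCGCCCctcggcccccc
Itgb1: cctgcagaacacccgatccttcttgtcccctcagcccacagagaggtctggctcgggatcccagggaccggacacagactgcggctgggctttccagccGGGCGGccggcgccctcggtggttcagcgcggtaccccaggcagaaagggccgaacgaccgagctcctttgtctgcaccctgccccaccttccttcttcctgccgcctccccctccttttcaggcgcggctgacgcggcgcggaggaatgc
GGAAATTCC was in 94 of 32851 RefSeq promoter windows of this length (0.286%) and in 1 of the 40 windows matched to 35 member genes, that of Icam1. The GC box was in 32.7% of all windows and in 22 of the 40, and TATAAA, the TATA box, in 12.4% and in 5. ATTAA, core letters of homeodomain sites of the Hex type, was in 24.9% of all windows and in 8 of the 40 (20%), and in neither window printed here. A match describes these letters only.

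Integrin beta chains were the family most often above the array median. Of 9 probe sets 6 were above it on all 40 arrays: both of Itgb1, both of Itgb5, Itgb4 and 1 of Itgb7. Among the alpha chains 4 of 21 were (Itga3, Itgav and 2 sets of Itga7), among the cadherins 2 of 17 (Cdh1 and Cdh3), among the claudins 2 of 12 (Cldn4 and Cldn6) and among the immunoglobulin superfamily 0 of 20. In all, 14 members (17.5%) were above the median on every array, against 37.7% of all probe sets, and 47 were above it on none. The leukocyte chains Itgal, Itgam and Itgb2 and the vascular cadherin Cdh5 belong to those 47. Other leukocyte chains were mixed: Itgb7 was above the median on all 40 arrays on 100906_at and on 0 on 162193_f_at. Itgax was above it on 36 arrays, and Itgae on 0 on each of its probe sets.

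The groups differed little in most members. Without array 2, the range of a member's 11 group means had a median of 0.26, against 0.30 over all probe sets, and exceeded 0.5 in 12 members (15%) against 19.3% of all. The widest ranges were those of Cdh2 (1.32), Icam1 (0.95), Itga6 (0.90), Cldn6 (0.84), Itgb1 (0.79 and 0.61), Cldn7 (0.77), Cldn4 (0.71) and Epcam (0.68). A moderated F test over the 11 groups in limma called 6 members, where 5.17% of all probe sets were called: Cdh2, Ceacam1 (102806_g_at), Itga3 (104210_at), both of Itgb1 and Itgb5 (100601_at). Without array 2 it called 9, where 12.9% of all were.

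**Figure D1:**
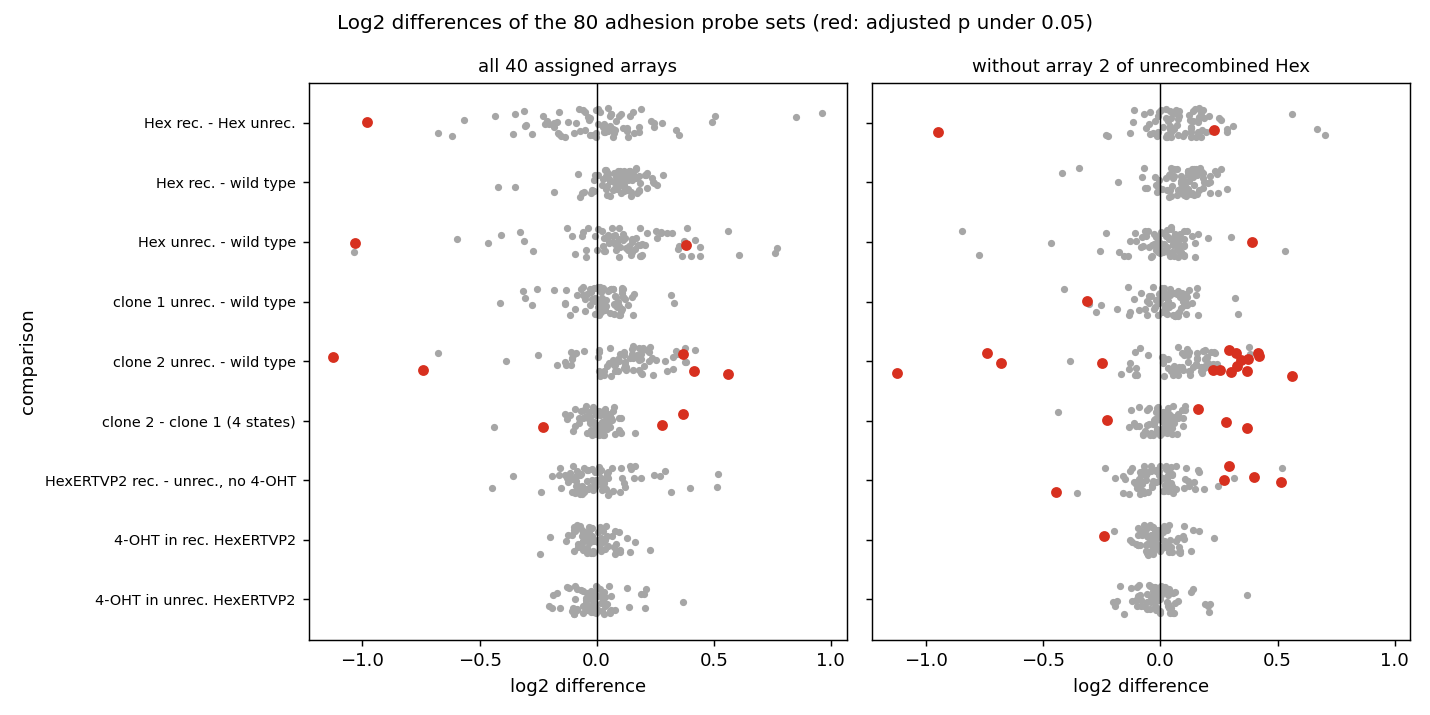
Log2 differences (horizontal axis) of the 80 adhesion probe sets in 9 comparisons (vertical axis, points jittered for visibility), fitted on all 40 assigned arrays (left) and without array 2 of unrecombined Hex (right); red points have an adjusted p under 0.05. The fit of clone 2 unrecombined against wild type has 5 red points on the left and 16 on the right, and 4-OHT in unrecombined cells has 0 in both.

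Recombined against unrecombined Hex compares the Hex cells after and before recombination. The labels name no clone for this line and do not say that replicates are separate cultures. A change by recombination and another difference between these cells therefore cannot be told apart. In this comparison 1 member was called, Icam1, where 3.37% of all probe sets were called. Without array 2 it was 2 (Icam1 and Cdh3), where 6.26% were. Unrecombined Hex against wild type called 2 (Cdh2 and Ncam1), where 4.82% were called, and 1 (Ncam1) without array 2, where 3.63% were. Recombined Hex against wild type called 0 in limma, where 0.266% were called; 8 members had an unadjusted p under 0.05, and without array 2 the count was again 0, where 1.37% were called. The 3 comparisons share arrays, so their calls are not independent of each other.

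In the HexERTVP2 cells the unrecombined cells without 4-OHT were set against wild type. Clone 1 had 0 called members in limma (6 with an unadjusted p under 0.05), where 0.298% of all probe sets were called, and 1 without array 2, where 1.14% were. Clone 2 had 5, where 6.79% were called, and 16 without array 2, where 25.4% were, so the members' shares of 6.25% and 20% lie below those of all probe sets. Clone 2 against clone 1, averaged over the 4 states, called 3 members of 2 genes, where 1.22% were called, and 4 members of 3 genes without array 2, where 3.25% were. Recombined against unrecombined cells without 4-OHT, averaged over clones, called 0 (9 with an unadjusted p under 0.05), where 0.467% were called, and 5 without array 2, where 3.38% were. The test of a difference between the clones in that effect called 0 (7 with an unadjusted p under 0.05), where 0.290% were called, and 1 without array 2, where 1.35% were.

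Itgb1, the beta 1 chain that pairs with most alpha chains, was higher in clone 2 than in clone 1. In unrecombined cells with 4-OHT, probe set 100123_f_at read 10.90, 10.82 and 11.06 in clone 1 and 11.90, 11.50 and 11.75 in clone 2, and 100124_r_at read 8.46, 8.58 and 8.22 against 8.86, 9.13 and 9.10. The clones did not overlap in either probe set. Averaged over the 4 states, clone 2 exceeded clone 1 by 0.37 (SE 0.08, adjusted p = 0.0137) and 0.28 (SE 0.06, adjusted p = 0.00857) in limma, and both calls held in each of the 40 fits that left out 1 array. Without array 2 of unrecombined Hex the differences were the same and the adjusted p-values were 7.18e-04 and 6.71e-04. The 4 states contributed unequally, with differences for the 2 probe sets of 0.30 and 0.17 in unrecombined cells, 0.79 and 0.61 in unrecombined cells with 4-OHT, -0.01 and 0.24 in recombined cells and 0.40 and 0.10 in recombined cells with 4-OHT. The β-actin ratio differed by -0.00 between the clones. Names ending in _f_at and _r_at mark probe sets that Affymetrix designed under looser rules and that can share sequence with other transcripts, so the size of each is uncertain.

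Itgb1 was also higher after recombination in the HexERTVP2 cells, a difference not called on all arrays and called on both probe sets without array 2 of unrecombined Hex. On 100123_f_at it was also called without array 1 of unrecombined clone 2. In clone 1 without 4-OHT the 5 unrecombined arrays ran from 10.64 to 11.27 with a median of 11.05 on 100123_f_at, and the 4 recombined arrays were at 11.84, 11.54, 11.39 and 11.38, above all of them. In clone 2 the unrecombined arrays were at 11.55, 11.08 and 11.22 and the recombined ones at 11.45, 11.67 and 11.45, which overlap. Averaged over clones the rise was 0.40 (SE 0.11, adjusted p = 0.128 with array 2 and 0.0131 without) and, on 100124_r_at, 0.29 (SE 0.08, adjusted p = 0.127 and 0.0161). Recombined cells had a higher β-actin ratio by 0.44 (0.57 in clone 1, 0.30 in clone 2), and its part in the result was not tested beyond the fit with it as a covariate. Between recombined and unrecombined Hex the differences were 0.49 (adjusted p = 0.0715) and 0.35 (adjusted p = 0.0780), and 0.29 and 0.22 without array 2, none of them called. They were called without array 3 or 4 of unrecombined Hex on 100123_f_at and without array 1 or 3 on 100124_r_at, fits that keep array 2.

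**Figure D2:**
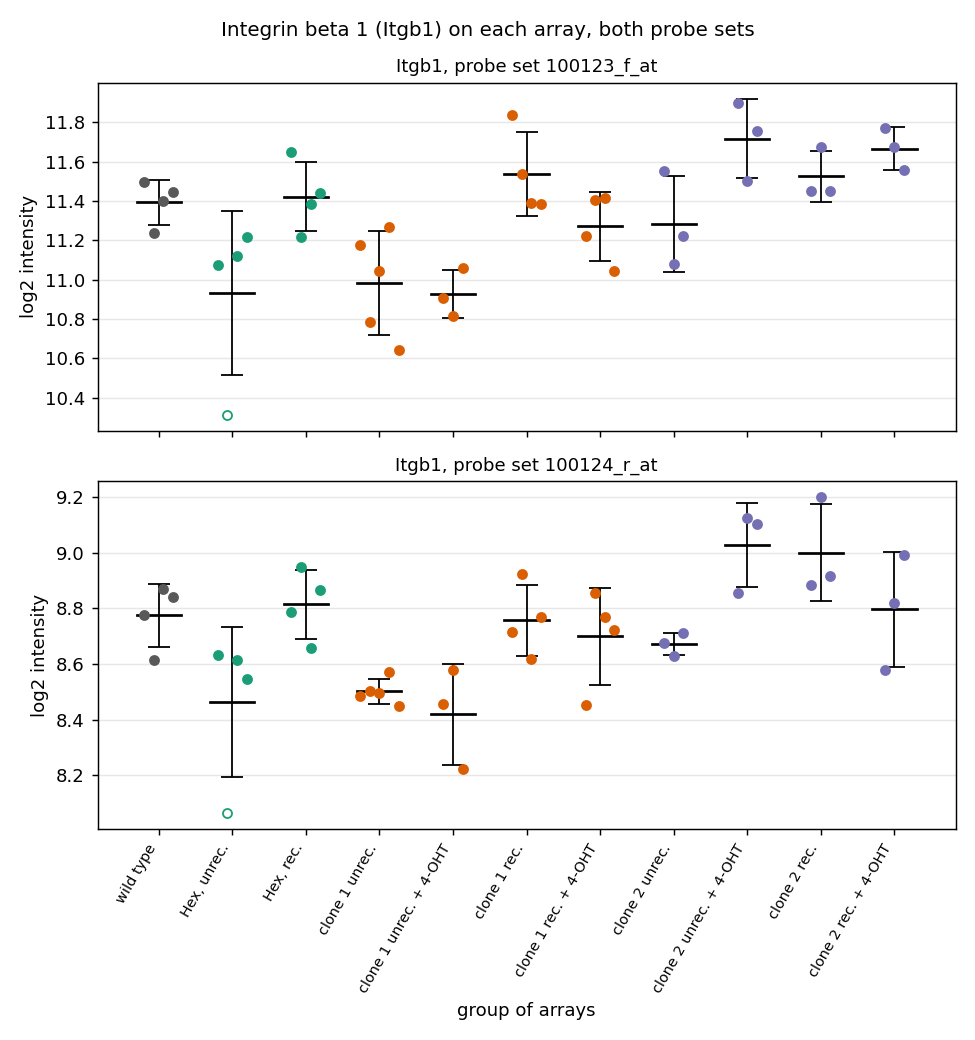
Log2 intensity (vertical axis) of both Itgb1 probe sets on each array, by group (horizontal axis); bars and whiskers are the group mean and SD, and the open circle is array 2 of unrecombined Hex. In unrecombined HexERTVP2 cells with 4-OHT all clone 2 arrays (11.50 to 11.90 on 100123_f_at) sit above all clone 1 arrays (10.82 to 11.06).

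Itgb5, the beta chain of the vitronectin receptor with alpha v, rose in unrecombined clone 2. Probe set 100601_at read 8.16, 8.25 and 8.40 in clone 2 and 7.77, 7.84, 8.02 and 7.77 in wild type, with no overlap. The difference was 0.42 (SE 0.09, adjusted p = 0.00484 in limma; 0.00103 without array 2). The call was lost without array 3 of the clone 2 group (adjusted p = 0.0641), and the other probe set of the gene, 162218_f_at, differed by 0.07 (adjusted p = 0.731).

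Itga6, the laminin receptor chain alpha 6, was lower in the same cells: 7.22, 6.83 and 6.53 in unrecombined clone 2 against 7.99, 7.47, 7.32 and 7.64 in wild type. No array of clone 2 reached the lowest of wild type. The difference was -0.74 (SE 0.21, adjusted p = 0.0336; 0.00134 without array 2), and 4 of the 40 fits without 1 array lost the call. In recombined clone 2 without 4-OHT Itga6 was at 7.59, 7.67 and 7.53, above every unrecombined array of that clone without 4-OHT. Unrecombined clone 2 cells with 4-OHT were themselves higher than those without it, by 0.53 (SE 0.23). Averaged over clones, recombined exceeded unrecombined cells by 0.51 (SE 0.15), not called on all arrays (adjusted p = 0.128 in limma). The difference was called without array 2 (adjusted p = 0.00542), and also without array 1 of unrecombined clone 2 without 4-OHT.

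Itga3, another laminin receptor chain, has 2 probe sets that moved differently. On 104211_at unrecombined clone 2 without 4-OHT read 6.81, 7.09 and 6.91 against 6.48, 6.35, 6.41 and 6.27 in wild type, without overlap. It was higher by 0.56 (SE 0.17, adjusted p = 0.0434 in limma), while 104210_at gave 0.17 (adjusted p = 0.349). Unrecombined clone 2 cells with 4-OHT differed from those without it by -0.26 (SE 0.18) on 104211_at. On 104210_at clone 2 was below clone 1 by 0.23 over the 4 states (SE 0.06, adjusted p = 0.0453), a call that 26 of the 40 fits without 1 array lost. That difference was largest in recombined cells with 4-OHT, where clone 1 read 7.80, 7.92, 7.86 and 7.96 and clone 2 read 7.46, 7.19 and 7.51, and on 104211_at the clones differed by -0.08 (adjusted p = 0.999).

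**Figure D3:**
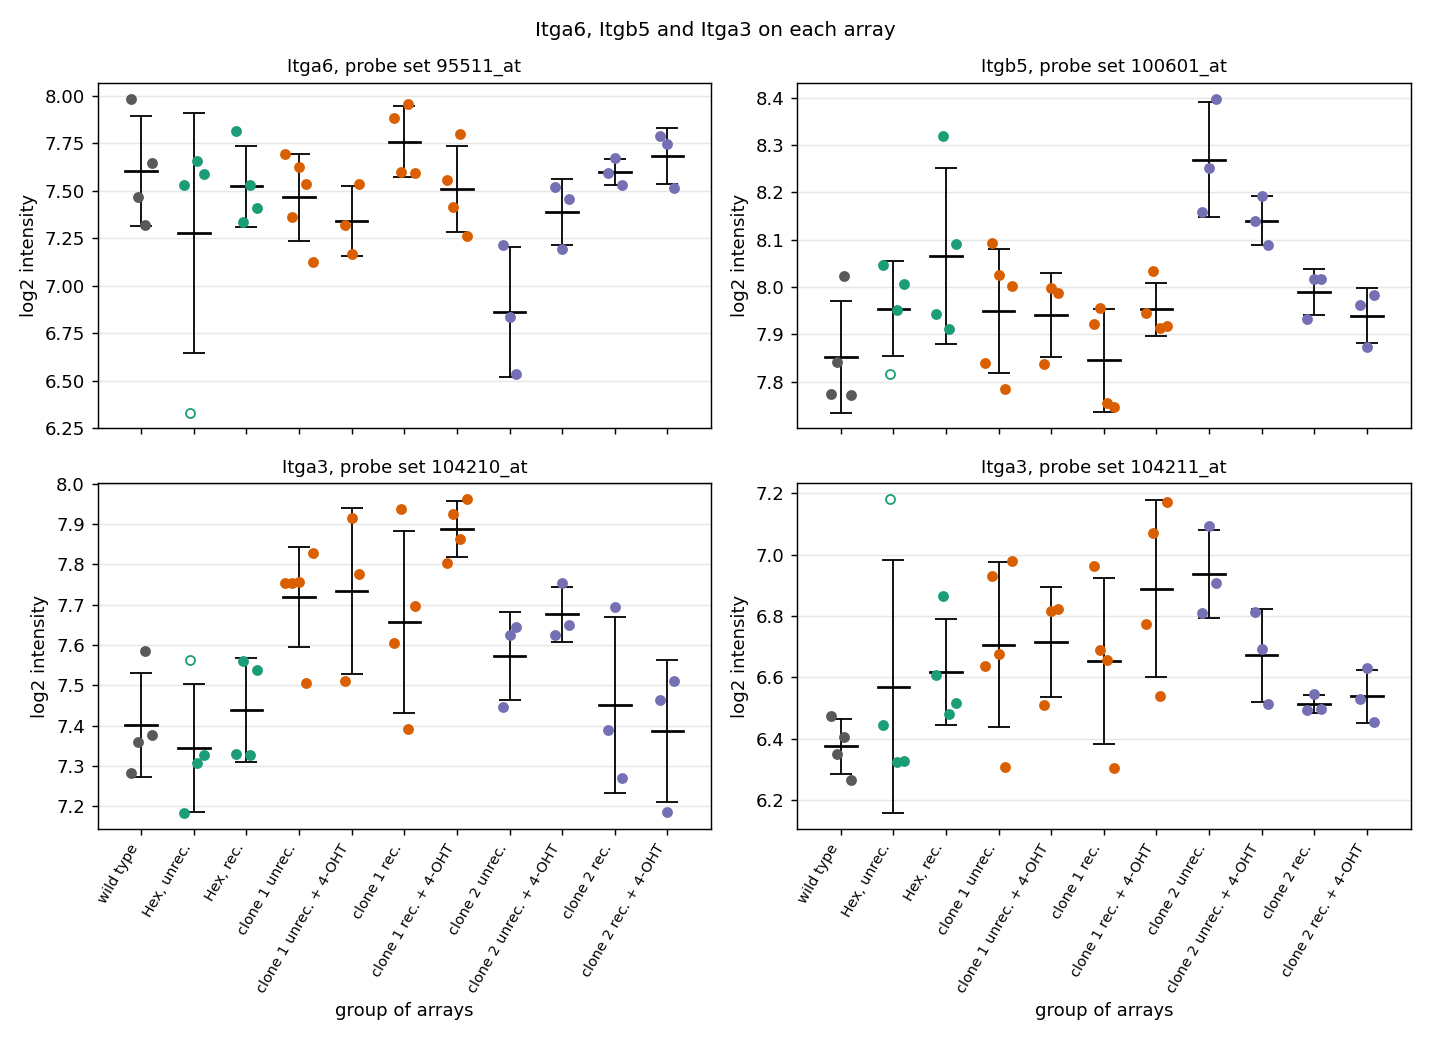
Log2 intensity (vertical axis) of Itga6, Itgb5 and both Itga3 probe sets on each array, by group (horizontal axis); bars and whiskers are the group mean and SD, and the open circle is array 2 of unrecombined Hex. In unrecombined clone 2 without 4-OHT the 3 Itga6 arrays (6.53 to 7.22) sit below and the 3 Itgb5 arrays (8.16 to 8.40) above the wild-type arrays.

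Cdh2, N-cadherin, had the widest range of the members, and 2 groups were low. Wild type read 7.69, 7.34, 7.01 and 7.44, unrecombined Hex 6.37, 5.78, 6.53 and 6.65, and unrecombined clone 2 6.86, 6.32 and 5.55. Neither low group overlapped wild type. Unrecombined Hex was lower by 1.03 (SE 0.27, adjusted p = 0.0173 in limma). This call was lost without array 2 (difference -0.85, adjusted p = 0.0895) and without array 1 or 4 of wild type. It was also lost when only the groups of the comparison were fitted. Unrecombined clone 2 was lower by 1.13 (SE 0.29, adjusted p = 0.0165; 0.00448 without array 2), a call lost without its array 3 or wild-type array 1. Recombined Hex, at 7.66, 6.60, 7.38 and 7.12, exceeded unrecombined Hex by 0.85 with overlap (adjusted p = 0.0699). Recombined clone 2 without 4-OHT read 7.42, 7.23 and 7.20. The low clone 2 group is the one without 4-OHT: unrecombined clone 2 cells with 4-OHT were higher than it by 0.73 (SE 0.31). Clone 1 was not low: its unrecombined arrays without 4-OHT ran from 6.90 to 7.96, and its difference from wild type was 0.16 (adjusted p = 1.0). The clones differed by -0.44 over the 4 states (adjusted p = 0.190).

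Cdh1, E-cadherin, was above the array median on all 40 arrays. It read 7.90, 7.74, 7.79 and 7.74 in wild type, 7.86, 9.0, 7.85 and 7.90 in unrecombined Hex, and 7.97, 8.04, 8.06 and 7.95 in recombined Hex, where only array 2 of unrecombined Hex lay outside a narrow band. The Hex difference was -0.15 with that array and 0.13 without it, called in neither. In unrecombined clone 2 Cdh1 read 8.29, 8.15 and 8.20, above every wild-type array by a difference of 0.42 (SE 0.16, adjusted p = 0.0935; 0.00100 without array 2). Cdh3, P-cadherin, read 7.80, 7.80, 7.80 and 7.81 in unrecombined Hex and 7.95, 8.14, 8.02 and 8.03 in recombined Hex on probe set 100409_at. The difference of 0.23 (SE 0.07) missed the threshold on all arrays (adjusted p = 0.0502 in limma) and passed it without array 2 (adjusted p = 0.0437). Of the 40 fits without 1 array, 5 passed it, the one without array 2 among them. The second probe set, 162097_r_at, gave -0.00 (0.18 without array 2). Cdh10, a cadherin of the nervous system, was called in clone 2 against wild type at a low level (4.88, 4.84 and 5.25 against 4.62, 4.60, 4.67 and 4.59; difference 0.37, adjusted p = 0.0443), and 11 of 40 fits without 1 array lost it.

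Epcam, whose product is an epithelial surface protein, differed from wild type in the direction opposite to Cdh1 in unrecombined clone 2 without 4-OHT. It read 7.53, 6.94 and 6.71 in that group and 7.93, 7.77, 7.58 and 7.68 in wild type, without overlap. The difference was -0.68 (SE 0.25, adjusted p = 0.0875 in limma, and 0.00964 without array 2). It was also called without array 1 of that clone 2 group. Unrecombined clone 2 cells with 4-OHT differed from those without it by 0.57 (SE 0.27). Among the claudins, Cldn6, a claudin of undifferentiated cells and early epithelia, was the only one called in the recombination comparison. In clone 2 without 4-OHT it read 7.81, 8.36 and 8.20 before recombination and 7.44, 7.58 and 7.32 after, without overlap. In clone 1 the groups overlapped. Unrecombined clone 2 cells with 4-OHT differed from those without it by -0.29 (SE 0.20). Averaged over clones Cldn6 was lower after recombination by 0.45 (SE 0.13, adjusted p = 0.0478 without array 2 and 0.136 with it, in limma). The difference was also called without array 1 of unrecombined clone 2 without 4-OHT. Cldn4 and Cldn7, further claudins of epithelial tight junctions, had wide spreads within groups: Cldn7 ran from 6.11 to 7.64 in recombined clone 2 with 4-OHT alone, and neither was called in any comparison between groups.

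Icam1, a ligand of leukocyte integrins, was lower in recombined than in unrecombined Hex. It read 6.98, 7.17, 7.20 and 6.97 in unrecombined Hex, 5.68, 6.55, 5.71 and 6.47 in recombined Hex, and 6.57, 6.43, 6.59 and 6.50 in wild type. The Hex groups did not overlap: unrecombined Hex was above every wild-type array, and recombined Hex reached down to 5.68 but overlapped wild type. The difference was -0.98 (SE 0.26, adjusted p = 0.0272 in limma), and -0.95 without array 2 (adjusted p = 0.0360). The call was lost without array 1 or 3 of recombined Hex, the 2 low arrays (differences from -1.13 to -0.84 over the fits without 1 array). It was also lost when only the groups of the comparison were fitted. The moderated F test over the 11 groups did not call Icam1 (adjusted p = 0.354, and 0.345 without array 2). Against wild type, recombined Hex differed by -0.42 (adjusted p = 0.648) and unrecombined Hex by 0.56 (adjusted p = 0.180), neither called. In HexERTVP2 cells Icam1 varied within groups, from 5.56 to 7.01 in recombined clone 1 with 4-OHT. Neuroectoderm markers moved with the Hex groups, the mean over 9 genes being 6.99 to 7.05 in unrecombined Hex without array 2, 6.83 to 6.89 in recombined Hex and 6.85 to 6.86 in wild type. Of them Gbx2 and Neurod1 were called lower and Nes higher after recombination. The mean of 8 trophoblast markers also separated the Hex groups. It was 5.69 to 5.78 in unrecombined Hex without array 2 and 5.79 to 6.02 in recombined Hex. The part of these markers in the result was not tested.

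Ncam1, a neural cell adhesion molecule, rose in unrecombined Hex on probe set 100153_at: 7.31, 7.17, 7.26 and 7.02 against 6.90, 6.79, 6.77 and 6.76 in wild type, without overlap. The difference was 0.38 (SE 0.08, adjusted p = 0.00172 in limma), and 0.39 without array 2 (adjusted p = 0.00215). Each fit without 1 array kept the call, but it was lost when only the groups of the comparison were fitted. The moderated F test over the 11 groups did not call this probe set (adjusted p = 0.0996, and 0.0699 without array 2). The other 2 probe sets of the gene gave 0.03 (100152_at) and 0.76 (161750_f_at, adjusted p = 0.0958), the latter 0.20 without array 2, on which it read 8.43. Recombined Hex, at 7.03, 7.06, 6.80 and 6.96, differed from wild type by 0.16 (adjusted p = 0.599).

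**Figure D4:**
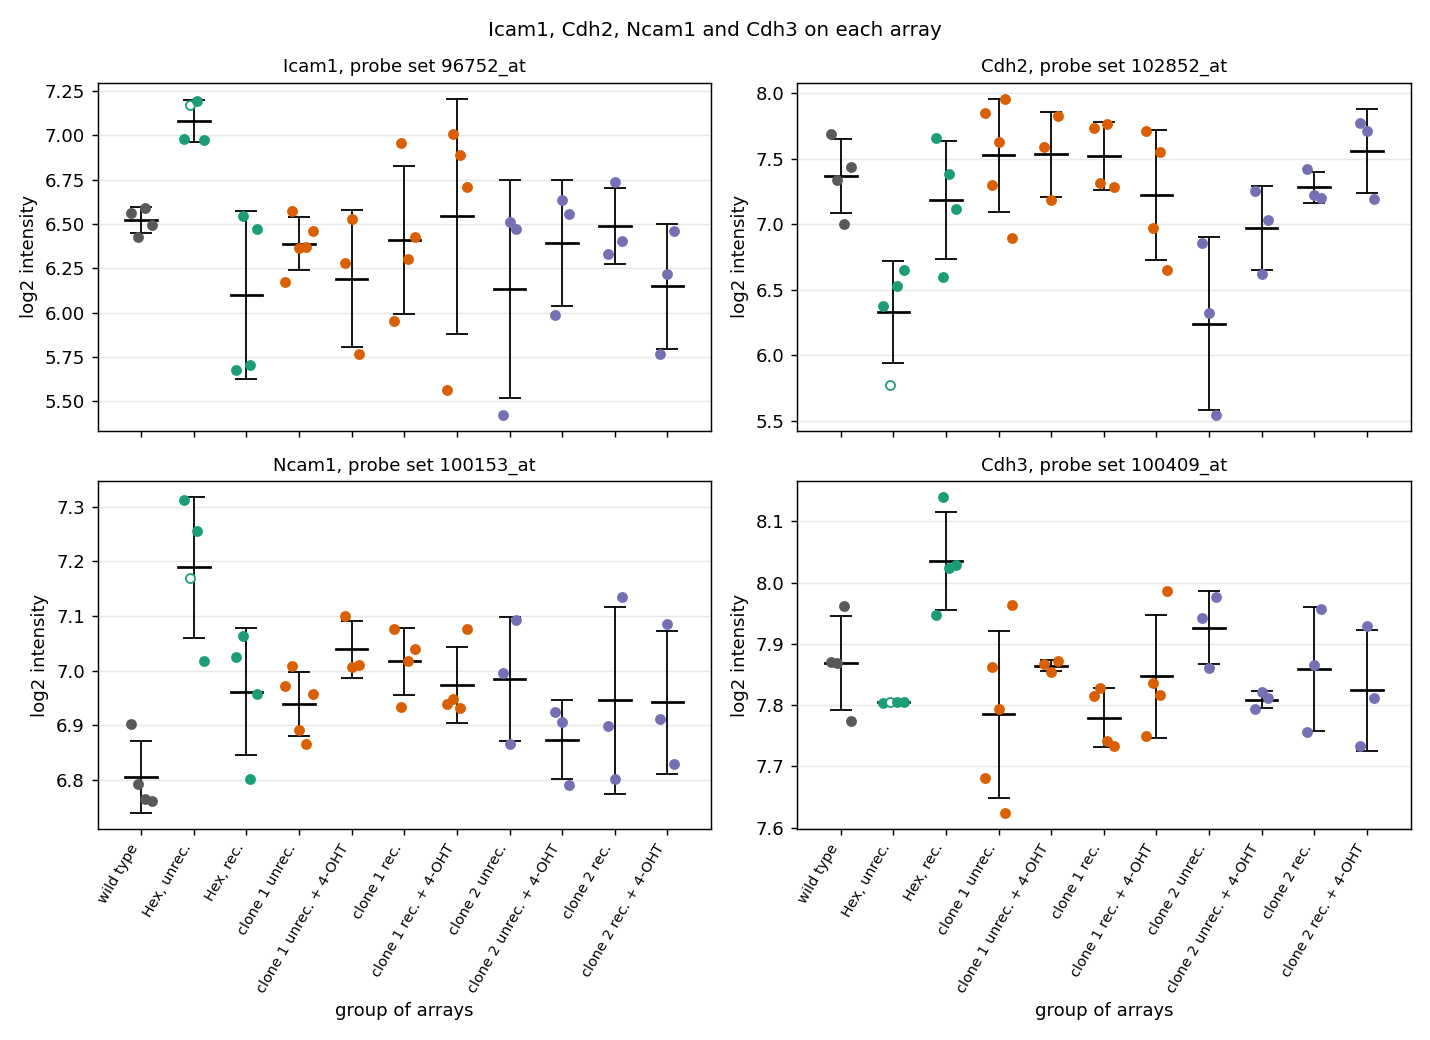
Log2 intensity (vertical axis) of Icam1, Cdh2, Ncam1 and Cdh3 on each array, by group (horizontal axis); bars and whiskers are the group mean and SD, and the open circle is array 2 of unrecombined Hex. Icam1 in unrecombined Hex (6.97 to 7.20) lies above recombined Hex (5.68 to 6.55), and Cdh2 is low in unrecombined Hex and unrecombined clone 2.

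Ceacam1, a cell adhesion receptor of epithelia, differed with recombination and with 4-OHT in both HexERTVP2 clones on probe set 102805_at. In clone 1 the 5 unrecombined arrays ran from 6.20 to 6.47, the recombined arrays were at 6.73, 6.79, 6.74 and 6.62, and recombined arrays with 4-OHT were at 6.42, 6.45, 6.43 and 6.49. In clone 2 the 3 states were at 6.49, 6.49 and 6.32, at 6.69, 6.63 and 6.56, and at 6.42, 6.54 and 6.29. In each clone the recombined arrays without 4-OHT lay above all arrays of the other 2 states. Averaged over clones it was 0.27 higher after recombination and 0.24 lower with 4-OHT in recombined cells, and both differences were called without array 2 (adjusted p = 0.00144 and 0.0350) but not with it (adjusted p = 0.190 and 1.0), where array 2 reads 5.76 against 6.51 to 6.69 in the rest of its group. The 2 effects share the recombined arrays without 4-OHT, and the difference between the 4-OHT effects in recombined and unrecombined cells was -0.22 (SE 0.13, adjusted p = 1.0; 0.652 without array 2). The β-actin ratio was 0.44 higher after recombination and 0.15 lower with 4-OHT in recombined cells. Against wild type, at 6.76, 6.69, 6.72 and 6.56, unrecombined clone 1 was lower by 0.32 and clone 2 by 0.25, both called without array 2 (adjusted p = 0.00491 and 0.0135) and not with it (adjusted p = 0.547 and 0.204). The second probe set, 102806_g_at, showed the same order in clone 1 (5.77 to 5.90, then 6.15, 6.09, 6.34 and 6.17, then 5.97, 5.89, 5.76 and 5.97) but not in clone 2, where the unrecombined arrays read 6.19, 6.06 and 6.71. The clones differed in its recombination effect by -0.63 (SE 0.22, adjusted p = 0.400; 0.00925 without array 2). Ceacam1 and Ceacam2 are close relatives, and a set ending in _g_at can share probes with another set, so signal cannot be assigned to 1 of them with certainty.

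**Figure D5:**
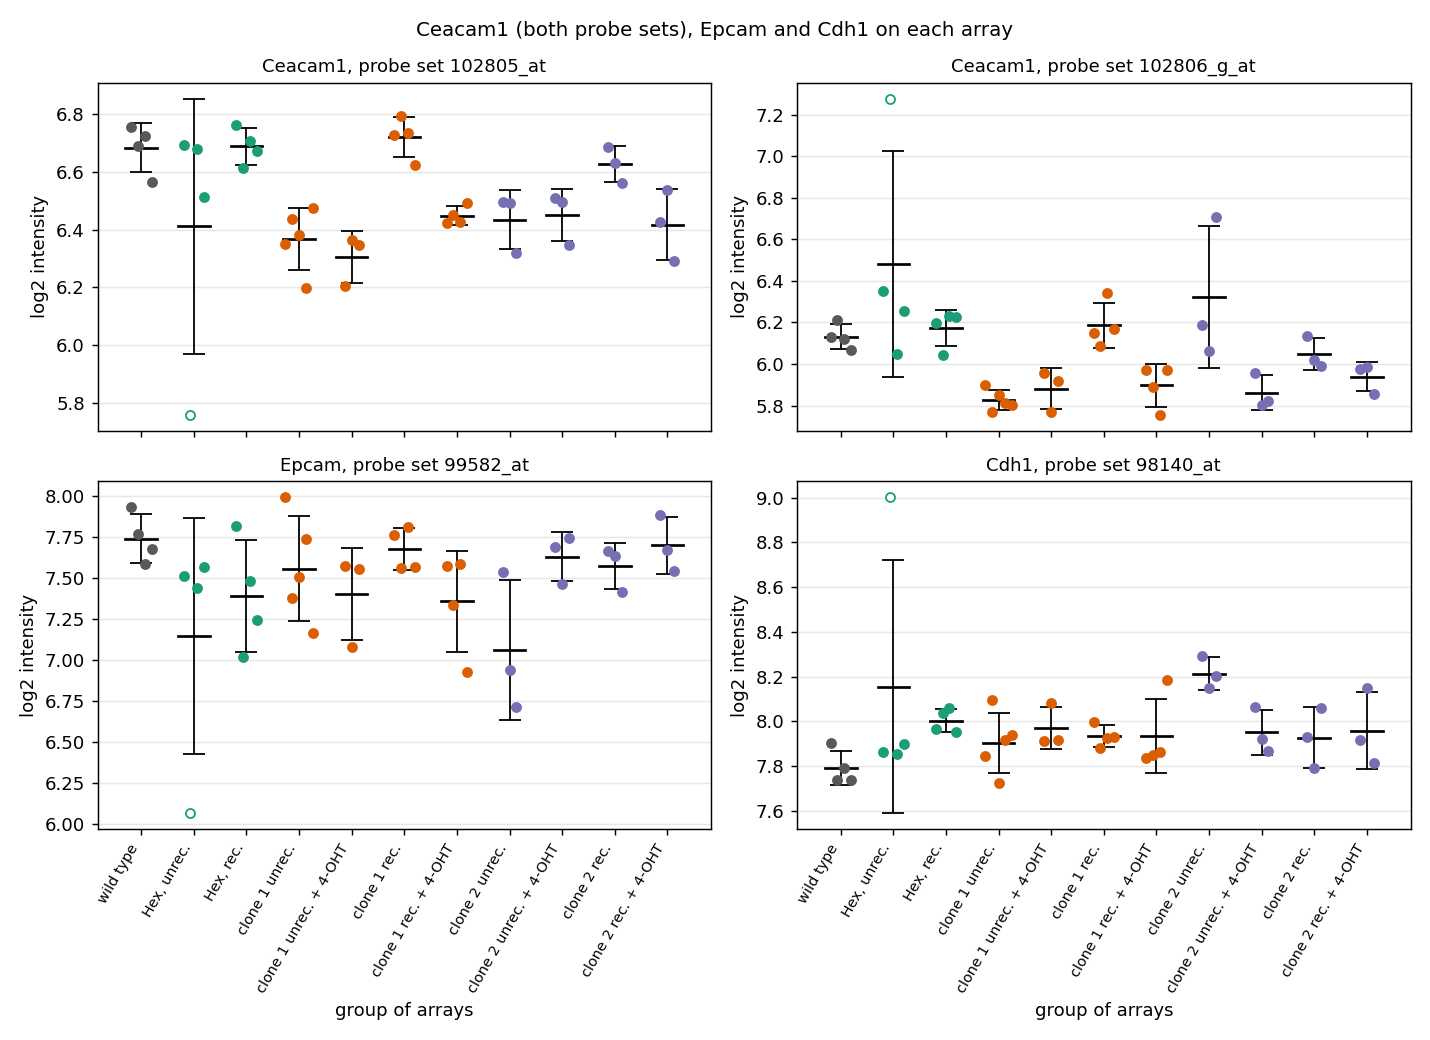
Log2 intensity (vertical axis) of both Ceacam1 probe sets, Epcam and Cdh1 on each array, by group (horizontal axis); bars and whiskers are the group mean and SD, and the open circle is array 2 of unrecombined Hex. On 102805_at the recombined HexERTVP2 arrays without 4-OHT (6.56 to 6.79) lie above the unrecombined ones (6.20 to 6.49), and array 2 is far from its group in all 4 panels.

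Other members, not called in any comparison between groups, had these ranges of group means. Itga7, a laminin receptor chain of muscle, had group means within 0.18 of each other on both of its probe sets above the array median (93061_at and 161497_f_at), Itgb4, the partner of alpha 6 in hemidesmosomes, within 0.20, and Itgb7, a leukocyte chain, within 0.27 on 100906_at. Itgav, the alpha v chain, disagreed between its 3 probe sets: 104386_f_at was above the array median on all 40 arrays with group means spanning 0.51, highest in recombined clone 1 and lowest in unrecombined clone 2 without 4-OHT, 104385_i_at was above it on 12 arrays and spanned 0.33, and 98366_at was above it on 0 and spanned 0.19. Itga5, the fibronectin receptor chain, was above the array median on 0 arrays and spanned 0.38, and the 3 sets of Itga4 spanned 0.15 to 0.19. Among cadherins Cdh15, of muscle, spanned 0.11 and 0.21, and Cdh5, of endothelium, 0.17, both on sets mostly or wholly below the array median. L1cam, a neural adhesion molecule, spanned 0.18, and the 3 sets of Vcam1, a ligand of alpha 4 integrins, spanned 0.16 to 0.30 (these ranges leave out array 2).

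With array 2, recombined against unrecombined Hex had median differences of 0.05 over 21 integrin alpha sets and -0.03 over 9 integrin beta sets. They were -0.00 over 17 cadherin, 0.04 over 12 claudin and -0.04 over 20 immunoglobulin superfamily sets, against 0.01 over all probe sets. Over the 80 members the median was 0.01 with array 2 (41 above 0) and 0.07 without it (62 above 0). Over all probe sets it was 0.04 without array 2. For unrecombined clone 2 against wild type the medians were 0.14, 0.07, 0.16, 0.21 and 0.11, against 0.07 over all, and 19 of 21, 6 of 9, 15 of 17, 9 of 12 and 16 of 20 sets were above 0. Cdh4, the retinal R-cadherin, was called higher in that comparison on 95371_g_at without array 2 (difference 0.38, adjusted p = 0.0115; 0.133 with it).

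In unrecombined clone 2 without 4-OHT against wild type 3 members were called higher, where 3.28% of all probe sets were, and 2 lower, where 3.5% were. Without array 2 it was 12 higher, where 13.8% were, and 4 lower, where 11.6% were: 4 cadherins higher (Cdh1, Cdh4, Cdh6 and Cdh10) and Cdh2 lower, 3 claudins higher (Cldn2, Cldn5 and Cldn8), Itga3, Itgax and Itgb5 higher and Itga6 lower, Ceacam2 and Icam5 higher and Ceacam1 lower, and Epcam lower. The median difference was 0.12 over the members and 0.07 over all probe sets. Endoderm markers moved with this comparison: the mean of 11 genes was 6.74 to 6.95 in unrecombined clone 2 and 6.56 to 6.62 in wild type. Of them Sox17 and Apoa1 were called higher. Other lists rose without overlap too: the mean of 10 fibroblast markers was 6.04 to 6.24 against 5.91 to 6.01. The mean of 8 trophoblast markers was 5.79 to 5.89 against 5.69 to 5.77. Blood and endothelium markers and neuroectoderm markers overlapped wild type. The mean of 12 ES cell markers was 9.39 to 9.50 against 9.75 to 9.83, with Nanog, Klf4 and Dppa3 called lower. The β-actin ratio was 0.33 lower. The part of each in the result was not tested, except that with the ratio as a covariate 17 members were called, against 5, while the share of all probe sets called was 22.3%, against 6.79%. Leaving out array 3 of unrecombined clone 2 left 0 members called.

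Partners of the adhesion molecules were looked up in the same comparisons, each gene by its probe set of highest mean. Of all probe sets, 3.37% were called between the Hex groups, 4.82% in unrecombined Hex and 6.79% in unrecombined clone 2 against wild type. Those shares include the dimmer probe sets of each gene, so they are not a like background for the lists. Of 16 genes of the cadherin-catenin complex, desmosomes and nectins, 1 was called between recombined and unrecombined Hex: Dsp, desmoplakin, which rose by 0.90 (SE 0.09, adjusted p = 7.53e-08). In unrecombined Hex Dsp was lower than in wild type by 0.96 (adjusted p = 2.18e-08) and Vcl, vinculin, by 1.14 (adjusted p = 0.0206; 0.119 without array 2). Of 23 integrin ligands of the matrix, Col4a1, a type IV collagen chain, rose by 1.10 between the Hex groups (SE 0.18, adjusted p = 2.32e-04) and was higher in unrecombined clone 2 than in wild type by 1.37 (SE 0.20, adjusted p = 3.90e-05), with Col4a2 higher by 0.79 and the laminin chain Lama1 by 0.57, and Nid2, nidogen 2, lower by 1.16. The clones differed in the recombination effect on Col4a1 by -2.20 (SE 0.27, adjusted p = 9.26e-06), on Col4a2 by -0.95 and on Lama1 by -0.98. Of 10 other tight junction genes 0 were called in the Hex comparisons on all arrays and 1 in clone 2 against wild type (Crb3, higher by 0.33). Of 18 integrin adaptors, kinases and partners, Cd9 was called in unrecombined Hex (lower by 0.53, adjusted p = 0.0469; 0.352 without array 2), and 2 were higher and 1 lower in clone 2 against wild type. Of 9 regulators of epithelial-mesenchymal transition, Esrp1, a splicing regulator, was lower in unrecombined Hex by 0.70 (adjusted p = 0.0302; 0.203 without array 2) and in clone 2 by 0.93 (adjusted p = 0.00721).

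4-OHT left the adhesion genes with few calls. In unrecombined HexERTVP2 cells limma called 0 members and 0.000% of all probe sets; 0 members and 169 of all probe sets had an unadjusted p under 0.05, and without array 2 the counts were 2 and 541. In recombined cells it called 0, where 0.0322% were called (1 member with an unadjusted p under 0.05), and Ceacam1 without array 2, where 0.145% were. The test of the difference between the 4-OHT effects called 0, where 0.0161% were called, and 0 without array 2, where 0.0644% were. Averaged over clones, Itgb1 differed with 4-OHT by 0.19 and 0.14 in unrecombined and by -0.06 and -0.13 in recombined cells, and Epcam by 0.21 and -0.10. The clones were unlike each other. In unrecombined cells Itgb1 differed by -0.06 and -0.08 in clone 1 and by 0.43 and 0.36 in clone 2. Epcam differed there by -0.15 and 0.57. In recombined cells Itgb1 differed by -0.27 and -0.06 in clone 1 and by 0.14 and -0.20 in clone 2, and Epcam by -0.32 and 0.13. The values by clone were not tested.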

How the data were processed

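Gene expression was measured on 44 single-channel Affymetrix arrays, and the deposited table gives 1 linear intensity per probe set and array; per the submitters' processing notes the authors used RMA, with no version or settings. Values were converted to log2. Of 12488 probe sets 66 controls were left out and 12422 tested, with no filter on level. Gene symbols are those of the platform annotation, which gave several for 396 probe sets and none for 1193, and all 80 members matched the RefSeq table of GRCm38.p6 with 0 symbols changed. Promoter windows are RefSeq, GRCm38.p6. Depth does not apply to arrays; their number limits the precision.

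A single limma model (limma 3.58.1, R 4.3.3) held all 11 groups, with 29 residual degrees of freedom, two-sided, Benjamini-Hochberg adjusted over all probe sets. Any member could be named, with values by array for those called (at most 8 per comparison) and for Cdh1, Itgb1, Epcam and Icam1, and from the lists of partners called genes with the largest differences. Members, lists and rules were chosen with earlier results of these data known. Alternatives were normalisation, dim probe sets, array weights, replicate block, β-actin ratio, groups fitted and each array left out; leaving out array 2 together with the ratio was added after seeing the data. The procedure was run on simulated data with independent normal values for each probe set and no array that stands apart. That run therefore does not bear on the effect of array 2. Figures were drawn with matplotlib 3.10.9.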

Additional observations from a re-analysis of the deposited data

Results flagged for a closer look

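A single array far from the rest of its group was found in 11 of 96 groups of 4 or 5 arrays tested, for the members named with values by array; chance gives about 1 in 20. Of these, 6 were array 2 of unrecombined Hex: Itga3 104211_at at 7.18, Itga6 at 6.33, Itgb1 at 10.31 (100123_f_at) and 8.06 (100124_r_at), Cdh1 at 9.0 and Epcam at 6.06. The others were Ncam1 100153_at at 7.08 and Cdh1 at 8.18 on array 4 of recombined clone 1 with 4-OHT, Itga3 104210_at at 7.51 on array 4 of unrecombined clone 1, Ceacam1 102806_g_at at 6.04 on array 2 of recombined Hex, and Cdh3 100409_at at 7.80 on array 1 of unrecombined Hex, where the whole group spans 7.80 to 7.81.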

How the results depend on the processing

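Counts of called members kept within 1.5 times of those reported in 521 recomputations and moved further in 66. Where the reported count was 0, only 0 was taken as kept. Values of single genes kept their direction in all but 6. Most of these genes were taken because they were called with or without array 2, so a reversal was unlikely from the start. Without 1 array the counts ran from 0 to 4 for the Hex comparison (main 1), 0 to 0 for recombined Hex against wild type, 1 to 13 for unrecombined Hex against wild type (13 without its array 3, 9 without array 1, 5 without array 4), 0 to 1 and 0 to 16 for unrecombined clone 1 and clone 2 against wild type, 2 to 4 between the clones, 0 to 5 for recombination, 0 to 1 for its difference between clones, 0 to 1 for 4-OHT in recombined cells and 4 to 9 for the F test. For the Hex comparison the count was 2 with centred medians, 3 with quantile normalisation, 2 without dim probe sets, 6 with array weights, 3 with the β-actin ratio, 0 with only its groups fitted and 7 without array 2 and with the ratio. In the order of these last 2 kinds (array weights, then array 2 out with the ratio), recombined Hex against wild type had 1 and 1, unrecombined Hex 6 and 4, clone 1 3 and 3, clone 2 12 and 25, clone against clone 5 and 5, recombination 6 and 4, its difference between clones 2 and 4, 4-OHT in recombined cells 1 and 1, and the F test 19 and 15. Clone 2 against wild type had 3 with centred medians, 2 with quantile normalisation and 17 with the ratio; clone against clone had 5 with the ratio; recombination had 1 with quantile normalisation, 1 with the ratio and 3 with only its groups; its difference between clones had 1 with the ratio; and with only their groups unrecombined Hex had 0 and clone 1 had 1. The causes were not tested.

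In the Hex comparison Epcam reversed to -0.15 with array weights, -0.12 without array 2 and -0.084 with array 2 out and the ratio, and Cdh1 to 0.12, 0.13 and 0.13; over the fits without 1 array Epcam ran from -0.12 to 0.39 and Cdh1 from -0.25 to 0.13. Same replicate numbers are not stated to pair arrays: over 173 pairs the deviations correlated with a median of 0.12 (range -0.70 to 0.85), and 11 of 40 arrays correlated best with their own number. With the replicate block 5 members were called in the Hex comparison, 3 in unrecombined Hex and 6 in clone 2 (both against wild type), 3 between the clones and 5 by the F test, and the block took no other count past 1.5 times. Precision is limited by 3 to 5 arrays a group and, for the 47 members never above the array median, by low signal.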

Other observations

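The 4 arrays whose titles contradict themselves were in no comparison. Itgb1 on 100123_f_at read 11.32, 11.31, 11.50 and 11.59 on them and Cdh2 read 7.99, 6.41, 7.34 and 7.47, in the order: clone 1 code with clone 2 words (unrecombined, 4-OHT), clone 2 unrecombined with 4-OHT in the code only, and the 2 recombined arrays with clone 2 codes and clone 1 words, the first coded without and the second with 4-OHT. Cldn7 read 6.27, 7.73, 6.52 and 6.75 on the same arrays.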
